A study of Mus musculus with 6 samples.

Results

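Protein phosphatase 1 (PP1) removes phosphate from serine and threonine residues of many proteins, and 9 of its genes were followed here out of 48709 genes in the count table of a mouse cerebellum RNA sequencing study. The set holds 3 inhibitor genes (Ppp1r17, Ppp1r1a, Ppp1r1b), 3 targeting or scaffold subunit genes (Ppp1r16b, Ppp1r9a, Ppp1r9b) and the 3 catalytic subunit genes (Ppp1ca, Ppp1cb, Ppp1cc). The genes were found by their GENCODE M21 symbols. They were chosen on earlier results of the same comparison, in particular for Ppp1r17 and Ppp1r16b beside other regulators and the catalytic subunits, so their knock-in against wild-type values are a description. Whether the fit across all genes called them is stated with the values, and nothing is supported with those calls.

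Cerebellum of C57BL/6J mice aged 40 weeks was sequenced as bulk polyadenylated RNA in 3 wild-type and 3 knock-in samples. The knock-in samples are labelled SCA7 140Q/5Q knock-in, and their titles abbreviate the genotype as Kihet. SCA7, spinocerebellar ataxia type 7, arises when the repeat of glutamine codons in Atxn7 is expanded. The labels name no Cre driver or transgene promoter and state neither the sex of the mice nor whether each sample was a single animal. If samples do not come from separate animals, the p-values measure only the spread between these samples, which may be technical. The title of the series names Purkinje cell genes as the ones that fall in this model, and the question here is how the PP1 genes stood in knock-in against wild-type cerebellum.

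The PP1 catalytic subunit seldom acts alone. Inhibitor proteins block it, often only after a kinase has phosphorylated them, and targeting subunits hold it at a membrane, a filament or a synapse, in many cases through a short docking stretch that fits a groove on the catalytic subunit. In Purkinje cells, the output neurons of the cerebellar cortex, phosphatase activity is known to bear on long-term depression of parallel fibre synapses. The protein of Ppp1r17, also called G-substrate, is known as a Purkinje cell substrate of cyclic GMP-dependent protein kinase and inhibits phosphatases once phosphorylated. The proteins of Ppp1r1a (inhibitor-1) and Ppp1r1b (DARPP-32) become PP1 inhibitors when protein kinase A phosphorylates a single threonine.

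The inhibitor genes share a coding feature that no expression value was used to find. The coding sequences (GENCODE M21 principal transcripts, mm10) were searched for codons of 2 arginines, any 2 residues, a threonine and a proline. Ppp1r17 held 2 such sites, Ppp1r1a and Ppp1r1b held 1 each, and the other 6 genes held none. The stretches are shown because this threonine is the known kinase target of these inhibitors, and capitals mark the codons of the threonine and the proline.
Ppp1r17, residues 72 and 73, exon 3, chr6:56026116-56026169, plus strand: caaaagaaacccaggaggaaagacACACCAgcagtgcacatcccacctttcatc
Ppp1r17, residues 123 and 124, exon 4, chr6:56026546-56026599, plus strand: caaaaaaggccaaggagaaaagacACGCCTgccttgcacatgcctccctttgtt
Ppp1r1a, residues 35 and 36, exons 1 and 2, chr15:103534363-103537800, minus strand, spliced: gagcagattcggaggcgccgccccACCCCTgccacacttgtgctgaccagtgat
Ppp1r1b, residues 34 and 35, exons 1 and 2, chr11:98349169-98350616, plus strand, spliced: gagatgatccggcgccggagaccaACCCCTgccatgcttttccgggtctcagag

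A second search looked for the docking pattern of PP1 partners, written as lysine or arginine, valine or isoleucine, any residue, then phenylalanine or tryptophan. It matched once in Ppp1r16b, Ppp1r1a and Ppp1r1b and at 2 places in Ppp1r9a and in Ppp1r9b. Ppp1r17 and the catalytic genes had 0 matches, which says only that these letters are not in their coding sequences. The first match of each gene is shown because it is what 2 of the inhibitors and the 3 targeting subunits have in common, with the codons of the pattern in capitals.
Ppp1r16b, residues 63 to 66, exon 3, chr2:158696129-158696176, plus strand: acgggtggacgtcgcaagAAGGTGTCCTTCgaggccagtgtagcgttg
Ppp1r1a, residues 9 to 12, exon 1, chr15:103537825-103537872, minus strand: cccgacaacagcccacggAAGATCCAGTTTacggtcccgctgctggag
Ppp1r1b, residues 8 to 11, exon 1, chr11:98349097-98349144, plus strand: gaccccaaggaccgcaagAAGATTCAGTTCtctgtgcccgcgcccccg
Ppp1r9a, residues 457 to 460, exon 2, chr6:4906797-4906844, plus strand: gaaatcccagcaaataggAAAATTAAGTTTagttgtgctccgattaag
Ppp1r9b, residues 448 to 451, exon 1, chr11:94992871-94992918, plus strand: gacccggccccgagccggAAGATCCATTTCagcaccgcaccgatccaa
A match is a description of the sequence and not a measured binding site.

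The libraries held between 34630391 and 49127673 counts, the knock-in libraries fewer than the wild-type libraries except that knock-in replicate 2 lay above wild-type replicate 3. Of 16699 genes that passed the filter on low counts, 318 (1.90%) met the threshold of 0.05 on edgeR's adjusted p and count as called. In the knock-in samples 213 of them (1.28%) were lower and 105 higher. When only library size was used for scaling, 190 were lower and 323 higher. Groups did not overlap, meaning that all knock-in libraries lay below or all lay above the wild-type libraries, for 23.8% of tested genes, and all knock-in libraries lay below for 11.5%. An unadjusted p under 0.05 was reached by 18.1%, the share against which such counts for gene lists stand below. Of 20 Purkinje cell markers, 10 were called lower (median log2 fold change -0.42), against 1.28% of all tested genes, and their summed level was 15944 to 17789 CPM in wild-type libraries, against 10593 to 12664 CPM in knock-in libraries. CPM is the usual depth-scaled count, here on library sizes scaled by TMM. The count of 10 became 13 with DESeq2, 0 with the brainstem covariate described below and 2 (without knock-in replicate 1) to 12 (without knock-in replicate 2) with 1 library left out.

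All 9 genes passed the filter, and 1 of them (11.1%), Ppp1r16b, was called, against 1.28% of all tested genes called lower. In 4 of 9 (Ppp1r17, Ppp1r16b, Ppp1r1b and Ppp1cc) every knock-in library lay below every wild-type library, against 11.5% of all tested genes. Since the genes were chosen from this comparison, nothing is read from these shares. The median log2 fold change (knock-in over wild type) of the 9 genes was -0.12, beside 0.01 for all tested genes, with 7 values below 0 and 2 above.

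**Figure D1:**
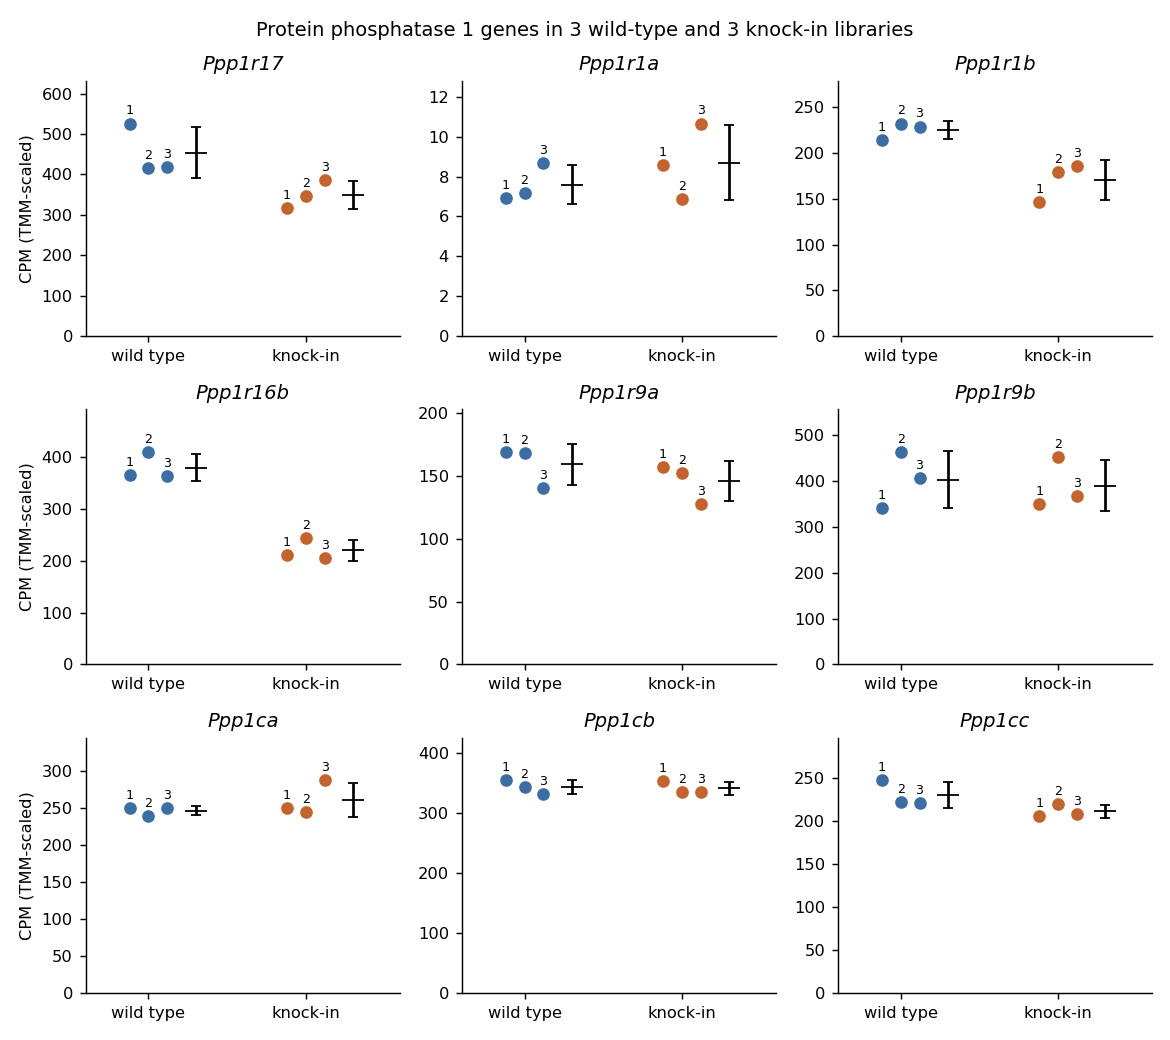
CPM (TMM-scaled, linear axes from 0) of the 9 PP1 genes in each library, with points numbered by replicate, wild type in blue and knock-in in orange, and bars giving the mean ± SD of 3 libraries. Ppp1r16b fell from 379 to 220 CPM, Ppp1r17 and Ppp1r1b had no overlap between groups, and the points of Ppp1ca, Ppp1cb, Ppp1r9a, Ppp1r9b and Ppp1r1a overlapped.

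Among the inhibitors, Ppp1r17 (ENSMUSG00000002930, chromosome 6, 56017497 to 56032689, plus strand) stood at 525.8, 415.4 and 419.1 CPM in the wild-type libraries and at 315.8, 346.6 and 384.8 CPM in the knock-in libraries. Wild-type replicate 1 was apart from the other wild-type libraries, and every knock-in library lay below the lowest wild-type library. The means were 453 ± 62.7 and 349 ± 34.6 CPM (SD, n = 3 each), so the knock-in mean was 77.0% of the wild-type mean. The log2 fold change was -0.38 ± 0.11 (SE), and the gene was not called. Without wild-type replicate 1 it was -0.27.

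Ppp1r1b (ENSMUSG00000061718, chromosome 11, 98348404 to 98357796, plus strand) stood at 214.2, 232.5 and 229.2 CPM in the wild-type libraries and at 146.2, 179.6 and 186.3 CPM in the knock-in libraries. The groups did not overlap, and knock-in replicate 1 was the lowest of the 6. The knock-in mean was 75.8% of the wild-type mean and the log2 fold change -0.40 ± 0.10, which was not called. DARPP-32 is best known from medium spiny neurons of the striatum, so the markers of forebrain and striatum were read beside it: 0 of 11 tested were called by edgeR (2 at an unadjusted p under 0.05, 1 by DESeq2), and their summed level was 242 to 272 CPM in wild-type and 229 to 268 CPM in knock-in libraries. Within that list the dopamine receptor genes Drd1 and Drd2 were at most 0.947 and 3.30 CPM in any library, far below Ppp1r1b.

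Ppp1r1a (ENSMUSG00000022490, chromosome 15, 103530279 to 103538003, minus strand) was scarce, at 6.92, 7.18 and 8.70 CPM in the wild-type libraries and at 8.58, 6.88 and 10.7 CPM in the knock-in libraries. The groups overlapped, and the log2 fold change of 0.20 ± 0.17 was close to its standard error. The coding sequences of Ppp1r1a and Ppp1r1b were 54.9% identical, so the 2 inhibitor genes are not near copies. Summed per exon length, the 3 inhibitor genes came to 341 ± 32.0 RPKM (reads per kilobase of merged exons, scaled as CPM is) in wild-type and 264 ± 27.3 RPKM in knock-in libraries, without overlap, and most of either sum was Ppp1r17.

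Among the targeting subunits, Ppp1r16b (ENSMUSG00000037754, chromosome 2, 158665398 to 158766334, plus strand) encodes TIMAP, a membrane-anchored relative of the myosin phosphatase targeting subunits that is known from endothelial cells. It stood at 365.8, 409.3 and 362.7 CPM in the wild-type libraries and at 211.3, 243.6 and 205.3 CPM in the knock-in libraries. The gap between the lowest wild-type and the highest knock-in library was wider than the spread within either group. The means were 379 ± 26.0 and 220 ± 20.6 CPM, the knock-in mean was 58.0% of the wild-type mean, and the log2 fold change was -0.79 ± 0.09. It had the largest difference of the 9 genes and was the one called.

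Because TIMAP is known from endothelium, endothelial markers were read beside Ppp1r16b. Of 11 tested, 0 were called by edgeR (5 of 11 at an unadjusted p under 0.05, against 18.1% of all tested genes, and 2 by DESeq2, 1 in each direction), and their summed level was 355 to 391 CPM in wild-type and 323 to 363 CPM in knock-in libraries. Flt1, Tek and Slco1a4 were lower and Vwf, Emcn and Esam higher in every knock-in library. The part of endothelial RNA in the values of Ppp1r16b was not tested.

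Ppp1r9a (ENSMUSG00000032827, chromosome 6, 4902917 to 5165661, plus strand) and Ppp1r9b (ENSMUSG00000038976, chromosome 11, 94991035 to 95006899, plus strand) encode neurabin and spinophilin, actin-binding scaffolds of dendritic spines whose coding sequences were 62.9% identical. Ppp1r9a stood at 169.2, 168.7 and 140.7 CPM in wild-type libraries, and its knock-in libraries at 157.0, 152.8 and 127.7 CPM, a log2 fold change of -0.13 ± 0.10. Ppp1r9b stood at 340.7, 463.8 and 406.0 CPM in wild-type libraries, and its knock-in libraries at 350.1, 453.2 and 366.8 CPM, a log2 fold change of -0.05 ± 0.13. Both genes overlapped between the groups, and both differences were smaller than the spread within a group. Under library size scaling, Ppp1r9b had a log2 fold change of 0.02, so its direction is not settled by these libraries.

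The catalytic subunit genes differed little between the groups. Ppp1ca (ENSMUSG00000040385, alpha subunit, chromosome 19, 4192065 to 4195420, plus strand) had 239.5 to 249.8 CPM in wild-type and 243.8 to 286.9 CPM in knock-in libraries, with a log2 fold change of 0.08 ± 0.08. Ppp1cb (ENSMUSG00000014956, beta subunit, chromosome 5, 32458843 to 32517433, plus strand) had 331.4 to 354.2 CPM and 334.5 to 353.0 CPM, with a log2 fold change of -0.01 ± 0.07. Ppp1cc (ENSMUSG00000004455, gamma subunit, chromosome 5, 122158278 to 122175273, plus strand) stood at 247.6, 222.3 and 221.0 CPM in the wild-type libraries and at 205.7, 220.5 and 208.6 CPM in the knock-in libraries. The groups of Ppp1cc were separate by less than 1 CPM, the log2 fold change was -0.12 ± 0.08, and the gene was not called under any alternative.

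The summed level of the 3 catalytic genes was 191.4 to 203.8 RPKM in wild-type and 191.7 to 205.4 RPKM in knock-in libraries, an overlap of nearly the whole range. Ppp1ca made up 49.8% ± 1.25 of this sum in wild-type and 52.5% ± 2.57 in knock-in libraries, Ppp1cc 34.2% ± 1.1 and 31.5% ± 1.97, and Ppp1cb 16.0% ± 0.39 and 15.9% ± 0.97 (SD, n = 3). The coding sequences were 75.3% to 79.0% identical, and the longest run of identical bases was 44, between Ppp1ca and Ppp1cc. Of the 9 coding sequences searched against all annotated transcripts, that of Ppp1cc alone had near-identical copies, in 5 other genes. The nearest, Ppp1ccb, was identical over 969 bases, so reads may align equally well to both genes and may be missing from the counts of both. Ppp1ccb held 414 counts over the 6 libraries, 0.769% of those of Ppp1cc. This share does not bound the reads left uncounted, and the copies Gm9231 and Gm9315 are not in the count table. The level of Ppp1cc and its share of the catalytic sum may therefore be too low. Rad9a, on the opposite strand, overlaps the end of Ppp1ca and held 4285 counts beside 61141 for Ppp1ca, and the strand setting of the counting is not given in the sources used here.

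Compared per merged exon length in the wild-type libraries, the order of the levels was Ppp1r17 (258 RPKM), Ppp1ca (97.7), Ppp1r9b (79.4), Ppp1r1b (76.9), Ppp1cc (67.3), Ppp1r16b (42.9), Ppp1cb (31.4), Ppp1r9a (10.98) and Ppp1r1a (5.82), all mean RPKM. Of neighbours in this order, Ppp1r9b and Ppp1r1b overlapped between libraries and the other pairs did not. In the knock-in libraries Ppp1r1b (58.3 RPKM) stood behind Ppp1cc (61.8 RPKM), and Ppp1r16b (24.9 RPKM) behind Ppp1cb (31.2 RPKM). The order of the middle genes rests on the length used: with the principal transcript, an alternative added after the data were seen, Ppp1r1b (113 RPKM) stood above Ppp1cc and Ppp1r9b, and Ppp1cb (57.5 RPKM) stood just above Ppp1r16b (56.7 RPKM). Ppp1r17 and Ppp1ca were first and second, and Ppp1r9a and Ppp1r1a last, with either length.

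**Figure D2:**
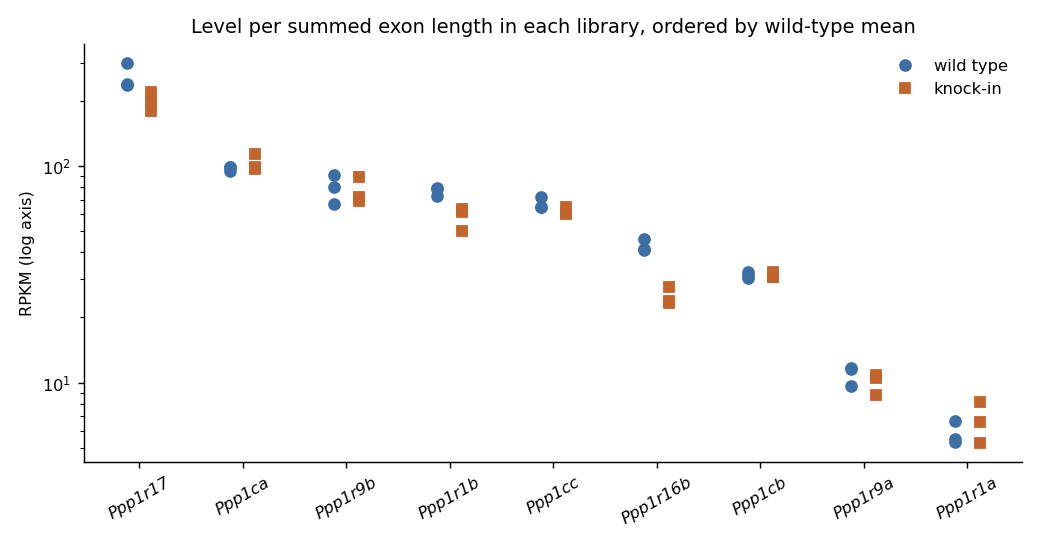
RPKM (merged exon length, log axis) of each PP1 gene in the 3 wild-type (circles) and 3 knock-in (squares) libraries, ordered by the wild-type mean. Ppp1r17 lies highest in every library, and the squares of Ppp1r16b lie under the level of Ppp1cb while its circles lie above it.

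In bulk tissue, fewer cells of a type and less RNA per cell cannot be told apart. Ratios between genes within a library do not separate them either, since the genes compared have fold changes of their own. As a description, the level of Ppp1r17 and Ppp1r16b was set against 3 genes of Purkinje cells within each library. These were Calb1 (calbindin), Pcp2 (a Purkinje cell protein that acts on G proteins) and Car8 (a carbonic anhydrase-related protein that binds the inositol trisphosphate receptor). Calb1 fell by 0.50 ± 0.08 and Car8 by 0.55 ± 0.08 on the log2 scale (SE, edgeR adjusted p = 0.0182 and 0.0144), and every knock-in library was lower for both. Calb1 was called in 2 and Car8 in 3 of the 6 fits with 1 library left out (highest adjusted p = 0.108 and 0.0924), and neither with the brainstem covariate. Pcp2 had a log2 fold change of -0.10 ± 0.13 (edgeR adjusted p = 0.73), with overlapping groups.

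The ratio of Ppp1r17 to Calb1 counts was 0.297 ± 0.019 in wild-type and 0.323 ± 0.014 in knock-in libraries, and the groups overlapped. Its ratio to Car8 was 0.158 ± 0.009 and 0.178 ± 0.009, higher in every knock-in library, and its ratio to Pcp2 was 1.05 ± 0.30 and 0.849 ± 0.073, with overlap. So Ppp1r17 was lower relative to 1 of the 3 comparators by the mean and higher relative to 2. The lower mean relative to Pcp2 leaned on wild-type replicate 1, at 1.39 beside 0.846 and 0.904 in wild-type replicates 2 and 3. The knock-in ratios to Pcp2 were 0.933, 0.805 and 0.810.

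The ratio of Ppp1r16b to each comparator had a lower mean in the knock-in libraries. It was 0.250 ± 0.027 and 0.205 ± 0.021 to Calb1 and 0.133 ± 0.015 and 0.112 ± 0.011 to Car8, both with overlap. To Pcp2 it was 0.860 ± 0.094 and 0.541 ± 0.099, lower in every knock-in library. These ratios use the values on which the genes were chosen and are given without a test. They hold for these 3 comparators only. In the Purkinje cell list, Rgs8 (-1.01 ± 0.10) and Gng13 (-0.81 ± 0.10) had a larger fall in log2 fold change than Ppp1r16b (-0.79 ± 0.09). The other markers of that list had a smaller fall or none.

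**Figure D3:**
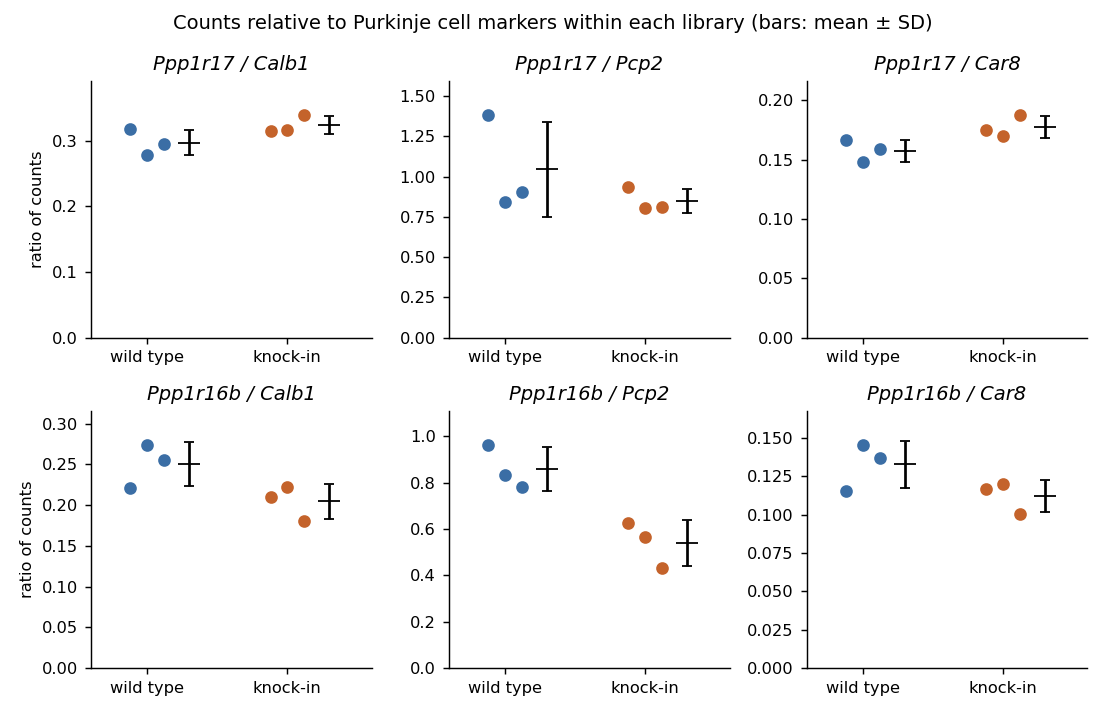
Ratio of Ppp1r17 counts (top) and Ppp1r16b counts (bottom) to those of Calb1, Pcp2 and Car8 in each library, on linear axes from 0, with the mean ± SD of 3 libraries as bars. The groups are apart only for Ppp1r17 to Car8, where knock-in libraries are higher, and for Ppp1r16b to Pcp2, where they are lower.

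The genes whose level ran most like that of Ppp1r17 over the 6 libraries, among 10012 protein-coding genes with a mean of at least 10 CPM, were Socs2 (a suppressor of cytokine signalling), Casq2 (calsequestrin), Ccni (a cyclin), Gnpda1 (glucosamine-phosphate deaminase) and Selenos (a selenoprotein of the endoplasmic reticulum). Their Pearson r of log2 CPM with Ppp1r17 was 0.992, 0.990, 0.987, 0.986 and 0.986, and 0.962 to 0.982 after the group means were taken out. All of them, like Ppp1r17, were highest in wild-type replicate 1, as with Casq2 at 92.5 CPM beside 67.9 and 70.2 CPM in the other wild-type libraries. Their own log2 fold changes ran from -0.48 ± 0.12 (Casq2) to -0.10 ± 0.07 (Ccni). For Ppp1r16b the 5 nearest were Aqp4 (the astrocyte water channel), Gdf11 (a growth factor), Igfbp5 (which binds insulin-like growth factors), Doc2b (a calcium sensor of vesicle release) and Rgs8 (a regulator of G protein signalling), with r of 0.998, 0.997, 0.997, 0.996 and 0.995.

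The genes nearest to Ppp1r16b had log2 fold changes from -0.54 ± 0.08 (Aqp4) to -1.24 ± 0.12 (Igfbp5). Likeness over all 6 libraries includes the difference between the groups, so this direction was fixed by the choice, and likewise for the genes nearest to Ppp1r17. Doc2b and Rgs8 are in the Purkinje cell list and Aqp4 is in the list of Bergmann glia and astrocytes. After the group means were taken out, r was 0.912 to 0.993. For both genes the correlations were picked as the highest of many, so high values were favoured by the choice, also with the group means out. These correlations rest on 6 libraries that share depth and genotype and describe likeness only.

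The other PP1 regulatory subunit genes gave no call. The table held 34 further Ppp1r genes, of which 30 were tested and 0 called by edgeR, against 1.90% of all tested genes. An unadjusted p under 0.05 was reached by 7 of 30, 2 lower and 5 higher, against 18.1% of all tested genes. DESeq2 called 1, Ppp1r3c, which encodes a glycogen-targeting subunit. The mean of Ppp1r3c was 53.4 ± 2.21 CPM over wild-type and 41.6 ± 2.38 CPM over knock-in libraries. Its log2 fold change was -0.36 ± 0.08 (edgeR adjusted p = 0.056), and it was named after its values were seen. Ppp1r14d had 0 counts in all libraries.

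The median log2 fold change of the 30 genes was 0.07, with 21 values above 0 and 9 below. Groups did not overlap for 7 of 30 (1 lower, 6 higher), against 23.8% of all tested genes. The 4 most abundant per exon length were Ppp1r11 (inhibitor-3), Ppp1r2 (inhibitor-2), Ppp1r37 and Ppp1r8 (a nuclear inhibitor of PP1). Their log2 fold changes were -0.04 ± 0.08, 0.06 ± 0.08, 0.26 ± 0.13 and 0.00 ± 0.08, each with overlapping groups. Their mean levels in wild-type libraries, 41.5, 28.7, 26.4 and 23.6 RPKM, were all below the mean of Ppp1r16b and above that of Ppp1r9a. Ppp1r11 overlapped with Ppp1r16b, at 43.5, 38.7 and 42.1 RPKM beside 41.4, 46.3 and 41.0 RPKM in wild-type replicates 1, 2 and 3. Their knock-in means were 40.4, 29.9, 31.7 and 23.7 RPKM, beside 24.9 RPKM for Ppp1r16b.

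**Figure D4:**
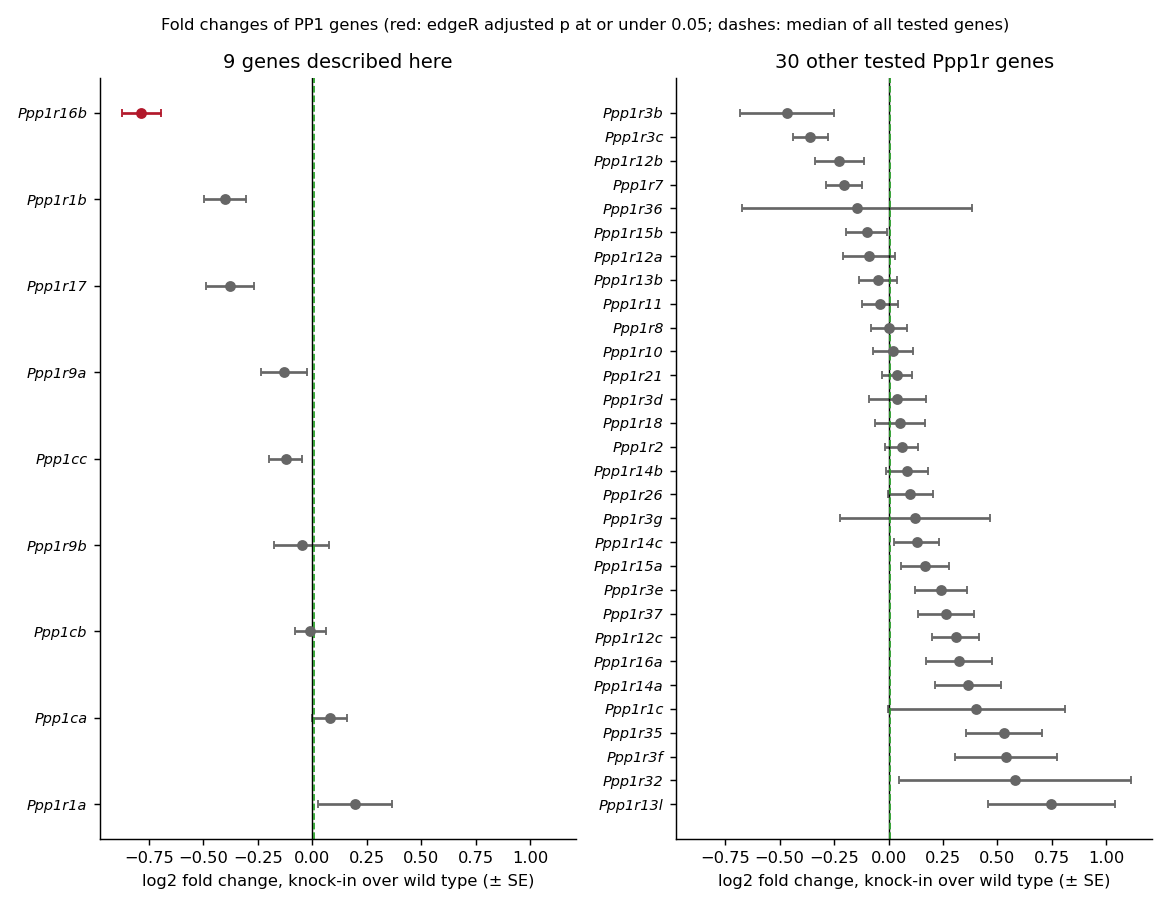
Log2 fold change (knock-in over wild type) with its SE as bars for the 9 PP1 genes (left) and the 30 other tested Ppp1r genes (right); red marks an edgeR adjusted p at or under 0.05 and the dashed line the median of all tested genes, 0.01. Ppp1r16b at -0.79 is the single red point.

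A list of 19 kinase genes, some of which are known to act on these inhibitors, held 1 called gene (against 1.90% of all tested genes), Prkg1 (ENSMUSG00000052920, chromosome 19, 30564489 to 31765033, minus strand). Prkg1 encodes the cyclic GMP-dependent kinase that is known to phosphorylate the protein of Ppp1r17. It stood at 28.7, 31.9 and 26.5 CPM in the wild-type libraries and at 13.6, 17.1 and 15.5 CPM in the knock-in libraries. Every knock-in library was lower. The log2 fold change was -0.92 ± 0.11 (edgeR adjusted p = 0.00458). The median of the 19 kinase genes, which also cover protein kinase A, protein kinase C and Cdk5, was 0.01, and 2 were called with DESeq2, 3 with no filter on low counts and 0 with the brainstem covariate.

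Other phosphatase families were nearly level. Of 22 other phosphatase genes of the PPP and PPM families, 1 was called, against 1.90% of all tested genes: Ppp4r4 (ENSMUSG00000021209, chromosome 12, 103532283 to 103613831, plus strand), a regulatory subunit gene of protein phosphatase 4. Its wild-type libraries stood at 80.9, 74.8 and 73.5 CPM and its knock-in libraries at 50.5, 56.0 and 52.4 CPM, lower in all 3, with a log2 fold change of -0.53 ± 0.08 (edgeR adjusted p = 0.0141). The median of the 22 genes was -0.01. The call of Ppp4r4 was lost with the brainstem covariate (adjusted p = 0.682), without wild-type replicate 1 (adjusted p = 0.0612), without knock-in replicate 1 (adjusted p = 0.103) and without knock-in replicate 3 (adjusted p = 0.0578).

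Of 21 protein phosphatase 2A genes 0 were called by edgeR (2 at an unadjusted p under 0.05, 0 by DESeq2), with a median of -0.04. Its most abundant member was the scaffold subunit Ppp2r1a at 0.03 ± 0.07. Of 9 calcineurin genes 0 were called (0 at an unadjusted p under 0.05, 0 by DESeq2), with a median of -0.07, and the most abundant was the regulatory subunit Ppp3r1 at -0.07 ± 0.08. Of 21 other PP1-binding genes 0 were called by edgeR (5 at an unadjusted p under 0.05, and 1, Phactr2, by DESeq2), with a median of -0.03 and Tprn (taperin) as the most abundant at -0.03 ± 0.09. Under library size scaling the medians of the phosphatase 2A, calcineurin, other PP1-binding and other phosphatase lists were 0.03, 0.01, 0.05 and 0.06, so their sign turned with the scaling.

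Markers of other cell types are given against the 1.28% of all tested genes called lower. Of Bergmann glia and astrocyte markers 4 of 12 were called lower (median -0.32), which became 7 with DESeq2 and 0 without wild-type replicate 3, knock-in replicate 1 or knock-in replicate 3. The calls of other lists were few: of granule neuron markers 1 of 12 was called lower (-0.14) and of oligodendrocyte markers 2 of 11 were called lower (0.03). Of 9 cortical interneuron markers (-0.25), 9 microglia markers (0.05) and 9 choroid plexus markers (-1.01), 0 were called by edgeR in each list, with 5, 3 and 3 at an unadjusted p under 0.05 and 3, 1 and 2 called by DESeq2. Choroid plexus markers summed to 516 to 1926 CPM in wild-type and 30.9 to 1323 CPM in knock-in libraries. Their part in the PP1 values was not tested.

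Brainstem markers stood apart in 2 knock-in libraries. Of 14 listed, 8 were tested and 1 was called higher (median 2.61), and their summed level was 17.5 to 24.1 CPM in wild-type libraries and 94.7, 18.1 and 59.2 CPM in knock-in replicates 1, 2 and 3. Among them Dbh, the noradrenaline-synthesizing enzyme, had 0 counts in wild-type replicate 3 and no more than 1.84 CPM in any wild-type library. Knock-in replicates 1, 2 and 3 held 14.4, 1.78 and 9.94 CPM of Dbh, so its groups overlapped, and it was not called. The log2 fold change was above 0 for 7 of the tested markers and below 0 for 1, Th (-0.19 ± 0.23). In the summed level knock-in replicate 2 was within the wild-type range. Of the 8 tested markers, 4 (Slc6a2, Slc18a2, Tph2 and Calca) were nevertheless higher in every knock-in library. With 1 library left out the count called, among those then tested, ran from 0 to 9, and it was 3 with DESeq2.

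Over 17 alternatives the log2 fold change of Ppp1r16b ran from -0.87 to -0.68 and that of Ppp1r17 from -0.45 to -0.27. As both were chosen on this difference, the ranges describe the dependence on processing and support nothing. In the fit that took the level of brainstem markers as covariate Ppp1r16b was not called, at -0.68 ± 0.15, and 3 genes in all were called. The covariate (mean log2 CPM) was 2.97 and 2.32 in knock-in replicates 1 and 3. It was 0.981 in knock-in replicate 2 and 0.378 to 0.999 in the wild-type libraries. The covariate thus ran partly with genotype, and the SE of Ppp1r16b rose from 0.09 to 0.15. With 6 libraries this fit separates genotype from the covariate poorly, so nothing is read from calls lost in it, for any gene or list. The log2 fold change of Ppp1r1b was -0.62 with GC and length offsets and -0.27 with the brainstem covariate. Prkg1 was lower under all 17 and called under 16, and with the brainstem covariate its log2 fold change was -0.78 ± 0.18 (edgeR adjusted p = 0.456).

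**Figure D5:**
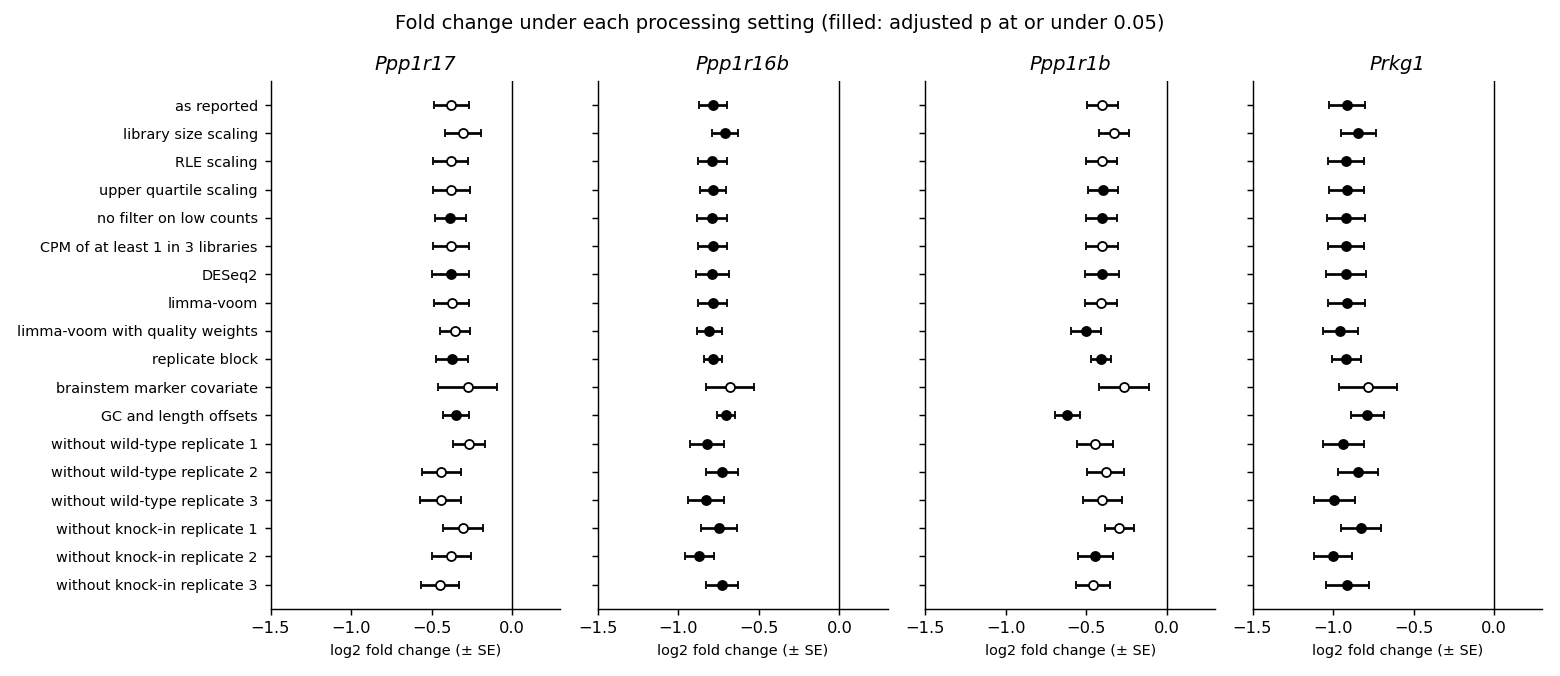
Log2 fold change with its SE for Ppp1r17, Ppp1r16b, Ppp1r1b and Prkg1 under the reported setting and 17 alternatives; filled points have an adjusted p at or under 0.05. All points lie below 0, and only the brainstem covariate leaves the points of Ppp1r16b and Prkg1 open.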

How the data were processed

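RNA was sequenced from 3 wild-type and 3 knock-in samples of cerebellum. Per the labels' protocols, total RNA came from a column kit and libraries from the Illumina TruSeq stranded kit for polyadenylated RNA. The authors deposited raw counts of reads per Ensembl gene, not normalized. Tools in the submitters' processing notes are HTSeq 0.6.1, Bowtie2 2.1.0, TopHat2 2.0.14 and bcl2fastq 2.17.1.14, with the build mm10. How strand was handled in counting, and the annotation, are not given in the sources used. GENCODE M21 matched 48349 of 48709 identifiers. Libraries of a group differed by more than sampling noise (chi-square per degree of freedom of 13.1 to 28.1), so none was taken for a copy of another library; this does not show separate animals.

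Groups came from the labels. Tests used edgeR 4.0.16 in R 4.3.3: filterByExpr (minimum count 10, minimum total 15), TMM scaling, the quasi-likelihood test with genotype alone, Benjamini-Hochberg adjustment over 16699 genes and a threshold of 0.05. The biological coefficient of variation was 0.115. CPM and RPKM were computed from the counts, TMM-scaled, with lengths of merged exons. Likeness used log2 CPM with a pseudocount of 0.5. The procedure was also run on simulated counts of independent libraries with known changes. Those lacked the brainstem and replicate differences of the real libraries, so that run says nothing on calls that depend on them. Alternatives used DESeq2 1.42.0, limma 3.58.1 (voom), other scalings and filters, a replicate block, a brainstem covariate, GC and length offsets and each library left out. Copies were sought with BLAST 2.17.0.

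The members and lists were chosen with earlier results of these data known. Named genes are all 9 members; of other Ppp1r genes, up to 8 called and the 4 most abundant not called; of each other pathway list, up to 3 called or else the most abundant; the 5 genes most like Ppp1r17 and Ppp1r16b; and Calb1, Pcp2 and Car8. Marker lists are given by counts, median and summed level; markers named singly, Ppp1r3c and Phactr2 were picked after their values were seen.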

Additional observations from a re-analysis of the deposited data

How the results depend on the processing

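The 318 genes called became 513 with library size scaling, 1303 with no filter on low counts, 934 with DESeq2, 746 with voom and quality weights, 753 with GC and length offsets and 3 with the brainstem covariate. Leaving out 1 library gave between 39 (without knock-in replicate 1) and 858 (without knock-in replicate 2), with 47, 89 and 78 without wild-type replicates 1, 2 and 3 and 73 without knock-in replicate 3. Of the 9 PP1 genes, 1 called became 2 with upper quartile scaling or voom with quality weights, 3 (Ppp1r17, Ppp1r16b and Ppp1r1b) with no filter, DESeq2 or GC and length offsets, and 0 with the brainstem covariate, and leaving out 1 library gave 1 to 2. Of the 30 other Ppp1r genes, 0 called became 1 with upper quartile scaling, a minimum of 1 CPM, DESeq2, voom with quality weights or GC and length offsets and 3 with no filter, and leaving out 1 library gave 0 to 1. Across the same settings, read for these lists after the data were seen, called kinases ran from 0 to 5, Purkinje cell markers from 0 to 15 and Bergmann glia and astrocyte markers from 0 to 7, with 0 under the brainstem covariate and the highest count reached under the replicate block. RLE scaling and plain voom left these counts within 1.5 times.

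The signs of 5 PP1 genes that were never called turned. Ppp1r1a was -0.060 (log2 fold change) with the brainstem covariate. With GC and length offsets Ppp1r9a was 0.042, Ppp1ca -0.032 and Ppp1cb 0.12. Ppp1r9b was 0.025 with library size scaling, 0.11 with the brainstem covariate, 0.061 without wild-type replicate 2, and 0.031 and 0.00077 without knock-in replicates 1 and 3, in a range of -0.17 to 0.061 over libraries left out. Ppp1cb was 0.065 with library size scaling, 0.030 with voom and quality weights, 0.0042 without wild-type replicate 1, and 9.98e-05 and 0.0095 without knock-in replicates 2 and 3, in a range of -0.046 to 0.0095. The cause was not tested for any of these. Library size scaling moved the median of all tested genes by 0.07.

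The labels do not state that equal replicate numbers pair samples. The deviations of same-numbered samples correlated at 0.054, 0.246 and 0.402, and those of other pairs at -0.339 to 0.067. Wild-type replicates 2 and 3 correlated best with the knock-in sample of the same number, and wild-type replicate 1 with knock-in replicate 2 (0.067). These values do not settle whether the numbers pair samples or mark a shared handling. As the labels state no pairing, the reported fit used genotype alone. With the replicate block 2034 genes, 3 of the 9 PP1 genes and 8 of the 30 other Ppp1r genes were called. With 3 samples a group, a difference that was not called, such as those of Ppp1r17 and Ppp1cc, is not shown to be absent.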
